A study of Homo sapiens with 4 samples.

Results

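ABCA4, DUSP10, RNLS and ARID5B are the genes held or adjoined by the 4 best lost sites of an ATAC-seq study of the human thyroid cancer cell line BCPAP. In ATAC-seq a transposase cuts exposed DNA, and reads pile up into peaks where chromatin is open. Treated cells had been given 5-azacytidine (2 libraries), and the others were untreated (2 libraries). The labels give neither dose nor duration, and they do not say whether replicates were grown separately, so their spread may be technical. The loci were chosen by measured values: a lost site has a peak in both untreated lists and in no treated list, and lost sites were ranked by the authors' p-value. The values of the 4 lost sites are therefore a description and were not tested. Peaks overlapping windows of 165 kb (ABCA4), 80 kb (DUSP10), 345 kb (RNLS) and 305 kb (ARID5B) on hg19 were taken, and a site is a set of peaks from any list that overlap by 1 bp or more. This gave 178 of 373425 sites in all, with 74 at ABCA4, 22 at DUSP10, 28 at RNLS and 54 at ARID5B.

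The 4 genes are not known as parts of a common pathway. ABCA4 encodes a membrane transporter that clears retinoid products from photoreceptor discs, and its loss causes Stargardt disease of the retina. DUSP10, also called MKP5, is a phosphatase that switches off the stress kinases p38 and JNK. RNLS encodes renalase, a flavoprotein oxidase found in kidney and blood. ARID5B is a DNA-binding protein of the AT-rich interaction domain family that brings the histone demethylase PHF2 to its targets, and its locus carries inherited risk of childhood leukaemia. 5-Azacytidine is built into nucleic acids and traps DNA methyltransferases, so that methylation of CpG dinucleotides falls as cells divide. Methylated CpG-rich promoters are usually closed, whereas accessible sites away from promoters often gain and lose methylation with the binding of transcription factors.

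The bases of the lost sites are not printed, since no hg19 genome was used. The start-site sequences of the genes show their CpG dinucleotides, whose methylation these data do not hold. The sequences were taken from RefSeq on GRCh38.p14, in windows of 300 bases around the annotated start. They were found for 3 of the 4 genes (DUSP10 and ARID5B have 2 entries each, of which the first is shown, RNLS has 1). Their GRCh38.p14 positions cannot be set beside the hg19 positions of the sites, so none of the sites described here was assigned to a start, exon or intron. Each sequence is given on the strand of its gene, with each CpG in capitals.
DUSP10, chr1:221742040-221742339, minus strand: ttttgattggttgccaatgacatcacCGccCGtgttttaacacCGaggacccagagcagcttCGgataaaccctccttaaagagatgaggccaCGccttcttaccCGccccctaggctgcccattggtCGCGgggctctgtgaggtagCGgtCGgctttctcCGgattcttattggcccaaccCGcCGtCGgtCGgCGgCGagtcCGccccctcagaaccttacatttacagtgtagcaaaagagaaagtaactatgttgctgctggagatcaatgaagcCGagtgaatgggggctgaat
RNLS, chr10:88583269-88583568, minus strand: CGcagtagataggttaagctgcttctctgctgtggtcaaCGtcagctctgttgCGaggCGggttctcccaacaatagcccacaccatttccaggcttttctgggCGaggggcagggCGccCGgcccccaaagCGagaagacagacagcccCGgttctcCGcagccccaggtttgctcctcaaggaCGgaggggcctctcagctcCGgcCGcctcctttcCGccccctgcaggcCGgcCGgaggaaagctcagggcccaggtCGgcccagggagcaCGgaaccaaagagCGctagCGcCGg
ARID5B, chr10:61901449-61901748, plus strand: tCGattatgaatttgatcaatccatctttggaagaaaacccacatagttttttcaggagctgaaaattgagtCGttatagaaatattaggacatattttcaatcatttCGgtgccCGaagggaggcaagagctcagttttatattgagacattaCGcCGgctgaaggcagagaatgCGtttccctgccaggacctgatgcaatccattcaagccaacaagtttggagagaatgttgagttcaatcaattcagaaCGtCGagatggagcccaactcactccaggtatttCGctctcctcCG
The first DUSP10 start holds 19 CpGs in 300 bases and the RNLS start 21, against a median of 14 over 35116 promoters of the same length. At least as many were found in 42.9% and 39.5% of those promoters. The first ARID5B start holds 11, and 54.7% of promoters hold at least as many. The second entries of DUSP10 and ARID5B hold 8 and 12.

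The 4 lists were unequal in strength. Summit coverage, the number of reads stacked at the highest point of a peak, was recovered from the fold values and was 4 or more for every listed peak. Over the 105414 sites found in all 4 lists, here called shared sites, its median was 11 and 16 in treated replicates 1 and 2, and 23 and 18 in untreated replicates 1 and 2. Coverage was therefore also divided by the library's own median over shared sites, which is called relative coverage, and a relative log2 ratio is the mean log2 relative coverage of the treated libraries minus that of the untreated libraries. Its median over all shared sites was 0.06, and that of the unscaled log2 ratio was -0.56. The lists held 259572 and 245142 peaks in treated replicates 1 and 2, and 221110 and 223345 in untreated replicates 1 and 2. Read totals are unknown.

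The strongest lost site lay at ABCA4, at chr1:94572220-94572745 (hg19). No peak was listed there in either treated library, against a summit coverage of 43 and 29 in untreated replicates 1 and 2. At DUSP10 the site at chr1:221875044-221875560 had no peak in either treated library, against a coverage of 38 and 28 in the untreated ones. The RNLS site at chr10:90025717-90026226 had no treated peak, against 39 and 28 in the untreated libraries. In each of these pairs untreated replicate 1, whose peaks were higher in general, had the higher value. The ARID5B site at chr10:63587931-63588439 had no treated peak, against 38 and 24 in the untreated libraries. All 4 were clear but not exceptional peaks in untreated cells, at 1.33 to 1.87 times the library's median over shared sites. The authors' fold enrichment of the ABCA4 peak was 23 and 15.8 in untreated replicates 1 and 2, and that of the ARID5B peak was 20.4 and 13.2. By the authors' p-value the ABCA4 peak lay within the strongest 12.7% and 16.1% of the untreated lists, and the ARID5B peak, the last of the 4, within 15.3% and 20.7%. The next lost site in this ranking, on chromosome 3, had a coverage of 34 and 24 and lay within 20.7% in its worse list as well.

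Sites of this height in untreated cells almost always had a peak after treatment. Over all chromosomes used, 1604 sites had a coverage of 38 to 43 in untreated replicate 1 and of 24 to 29 in untreated replicate 2. A peak was listed in both treated libraries at 1593 of them, in 1 treated library at 7, and in none at 4. Those 4 are the members themselves, whose coverages set these limits, and no other site of that height was without a treated peak. At these 1593 sites with both treated peaks the median coverage was 15 and 23 in treated replicates 1 and 2, and the 1st percentile was 6 and 9. Within the 4 loci, 23 sites had a coverage of at least 24 in both untreated lists. The other 19 had a peak in both treated lists, with a coverage of at least 10 and 11 in treated replicates 1 and 2. This contrast follows from the way the sites were chosen and was not tested.

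The deposited lists differ in how firmly they show the absence of a treated peak. The authors' peak caller numbers its peaks along each chromosome and adds letters when a peak holds several summits, and the deposited lists lack some numbers and letters, for which no reason is given in the labels. At the DUSP10 and ARID5B sites the treated peaks on either side carried consecutive numbers without letters, in both treated lists, so no other numbered peak was called between them. At the RNLS site this held in treated replicate 1, but in treated replicate 2 a number was missing between the neighbouring peaks, which lay 12 kb to the left and 4.9 kb to the right of the site. At the ABCA4 site both treated lists held a peak 0.5 kb to the left that carried the letter a and no companion. Letters rose with position in 100% of the peaks with several listed summits, so a further summit to the right of that peak, on the side of the lost site, had been called in each treated library and is not listed. Its position and height are not analysed here. Such gaps were common, since 81.5% and 82.6% of the lettered peaks of treated replicates 1 and 2, and 86.2% and 85.3% of those of untreated replicates 1 and 2, lacked at least 1 letter. In untreated replicate 1 summits a and b of 1 peak were both listed there, and b was the lost site. In untreated replicate 2 summits b and d were listed, and d was the lost site. Of 971 lost sites that reached a coverage of 10 in both untreated lists, 28 (2.88%) had a missing letter of this kind within 1000 bp in at least 1 treated list and 10 (1.03%) in both. A missing number was found at 256 of them (26.4%). Among 519 gained sites of the same height, which have a peak in both treated and no untreated list, the missing letter was found at 53 (10.2%) and the missing number at 139 (26.8%).

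**Figure D1:**
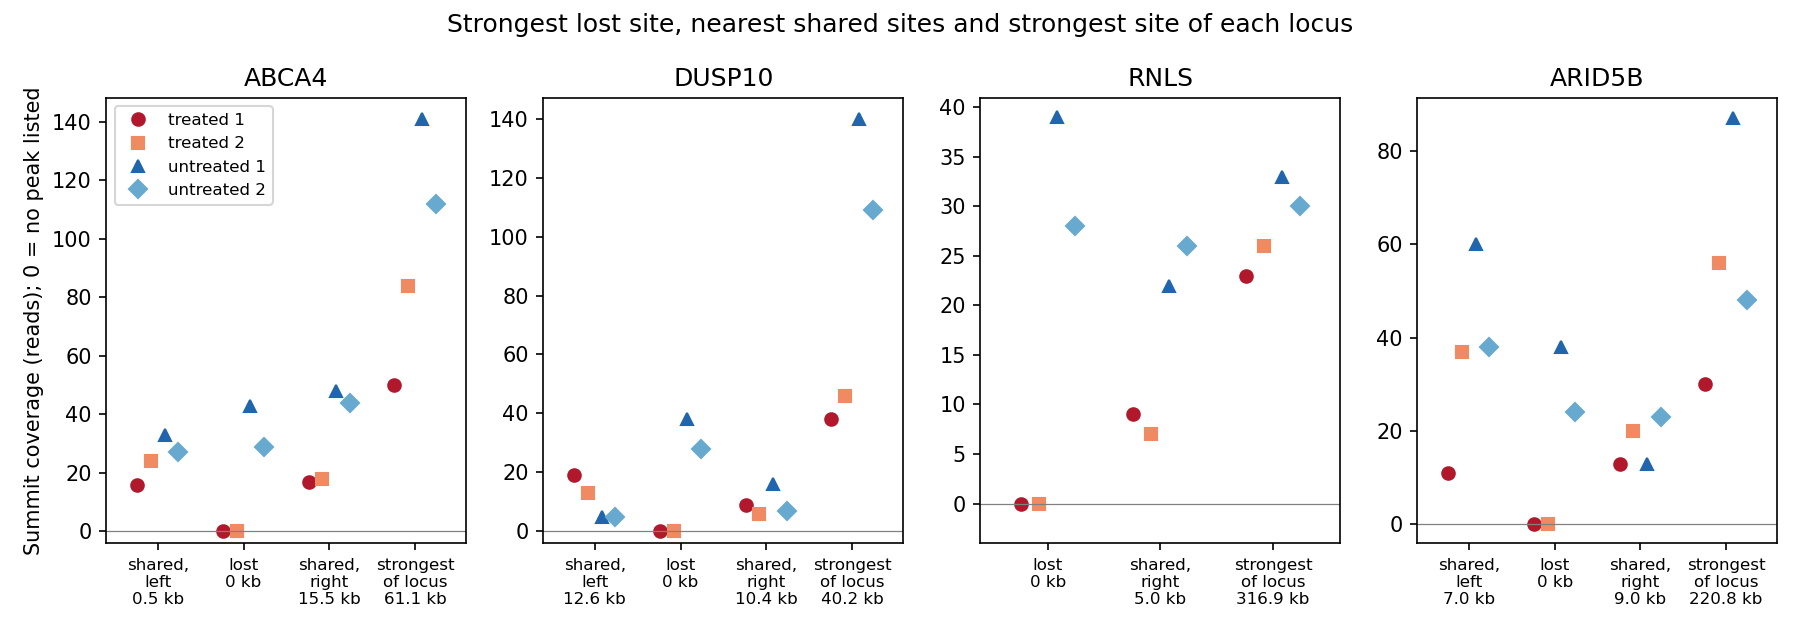
Summit coverage in reads (y axis, own scale per locus, 0 where no peak is listed) in the 2 treated and 2 untreated libraries at the strongest lost site, at the nearest shared site on either side and at the strongest site of each locus, with its distance from the lost site in kb under each. At the lost sites both treated libraries are at 0, against 24 to 43 in the untreated libraries, while the neighbouring shared sites have a peak in all 4 lists. No shared site lies to the left of the lost site in the RNLS window.

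The ABCA4 locus was dense in peaks, with 44.8 sites per 100 kb, and its lost site stood directly beside a shared site. That neighbour, at chr1:94571697-94572214, ended 5 bp before the lost site and had a coverage of 16 and 24 in treated replicates 1 and 2, and of 33 and 27 in untreated replicates 1 and 2. Unscaled, both treated libraries lay below both untreated libraries there, but the relative log2 ratio was 0.01 and the groups overlapped. The ratio was -0.16 to -0.01 without any 1 library, with library medians taken anew, and -0.61 without scaling. In the treated lists this stretch of ABCA4 has a listed summit at the neighbour and none at the lost site, and whether the unlisted treated summit lay at the lost site was not tested. When peaks within 150 bp of each other were merged, the 2 summits became 1 shared site and the ABCA4 locus had no lost site. On the right, the next sites had a peak in 1 list only or were crossed, with 1 treated and 1 untreated list, over a stretch of 15.5 kb up to the shared site at chr1:94587702-94588227. That site had a coverage of 17 and 18 in the treated libraries, against 48 and 44 in the untreated libraries, a relative log2 ratio of -0.78. Both treated libraries lay well below both untreated ones, scaled or not.

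The ABCA4 locus as a whole held 22 shared sites, 1 lost site and 2 gained sites. The strongest was at chr1:94511101-94511615, with 50 and 84 in the treated libraries against 141 and 112 in the untreated libraries and a relative log2 ratio of -0.34. Another site with a low treated value lay at the left edge, at chr1:94443022-94443580, with 16 and 16 against 38 and 48 and a relative log2 ratio of -0.80. At 1 shared site both treated libraries were well above both untreated ones, at chr1:94534441-94534956, where coverage was 17 and 17 in the treated libraries and 6 and 8 in the untreated libraries. Its relative log2 ratio was 1.91, a value exceeded by 0.231% of all shared sites. The site at chr1:94504984-94505758 had the next highest ratio, 0.69, with a coverage of 5 and 16 in the treated libraries against 8 and 9 in the untreated ones. Without treated replicate 2 it was -0.03. Both gained sites were weak. At chr1:94512276-94513148 the treated coverage was 6 and 5, and at chr1:94535104-94535864 it was 5 and 6, with no untreated peak at either. At the second a peak number was missing in untreated replicate 2, and neither was gained when an overlap of 50% was required. Of the 38 sites seen in 1 list only, 22 were in treated replicate 1 and 3 in treated replicate 2, against 2 and 11 in untreated replicates 1 and 2. Over all chromosomes used, treated replicate 1 also had the most such sites, 72023 of 171461. Treated replicate 2 had 41040, and untreated replicates 1 and 2 had 28703 and 29695.

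At DUSP10 the lost site stood alone, and 2 other sites of the locus had more coverage in both treated libraries. The nearest sites of any list lay 2.2 kb to the left and 7.2 kb to the right, and both were weak. The left one, at chr1:221872813-221873312, had a coverage of 5 in untreated replicate 1 only. The right one, at chr1:221882246-221882755, had 5 in treated replicate 1 and 5 in untreated replicate 2. The nearest shared site to the left, 12.6 kb away at chr1:221862423-221863004, stood the other way round from the lost site. Its coverage was 19 and 13 in the treated libraries, against 5 and 5 in the untreated libraries. The relative log2 ratio of 2.27 was the highest of all 56 shared sites of the 4 loci, and 0.0655% of all shared sites exceeded it. It was 1.69 without treated replicate 1. A second such site lay 18.2 kb to the right of the lost site, at chr1:221893239-221893831, with 11 and 9 in the treated libraries against 5 and 5 in the untreated ones and a relative log2 ratio of 1.61. Both treated libraries were above both untreated libraries at these 2 sites, with or without scaling.

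The strongest DUSP10 site was lower in both treated libraries. At chr1:221914524-221916542, a stretch of 2019 bp with several summits, coverage was 38 and 46 in the treated libraries, against 140 and 109 in the untreated libraries. The relative log2 ratio was -0.95, and 2.42% of all shared sites had a lower one. It was -0.29 with coverage summed over its peaks, -0.51 when an overlap of 50% was required and -1.56 without scaling. Next to it, a gained site at chr1:221913269-221914253 had a coverage of 7 and 6 in the treated libraries and no untreated peak, and a peak number was missing there in untreated replicate 1. It was no longer gained when such sites were left out. Directly to its right, at chr1:221916547-221917523, a weaker site had 13 and 8 against 6 and 11 and a relative log2 ratio of 0.95, with groups that overlapped. At the remaining 2 shared sites the groups overlapped too. The site at chr1:221898204-221899046 had 27 and 47 in the treated libraries against 61 and 40 in the untreated ones, a relative log2 ratio of 0.15. The site at chr1:221885453-221886035 had 9 and 6 against 16 and 7, a relative log2 ratio of 0.09 whose sign was negative without scaling (-0.53) and without treated replicate 1 (-0.51) or untreated replicate 2 (-0.41). The lost site was the third highest of the 22 DUSP10 sites in each untreated library.

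RNLS was the sparsest locus, with 8.12 sites per 100 kb, and its lost site was the highest peak of untreated replicate 1 in the window and the second highest of untreated replicate 2. The sites on either side had a peak in untreated replicate 2 only, with a coverage of 7 at chr10:90022318-90022817 and of 6 at chr10:90029806-90030305. The nearest shared site, 5.0 kb to the right at chr10:90030455-90031450, had a coverage of 9 and 7 in the treated libraries, against 22 and 26 in the untreated libraries. Its relative log2 ratio of -0.97 was among the lowest of the 4 loci, and 2.1% of all shared sites had a lower one. With merging by 1 bp, the nearest shared site at RNLS, unlike ABCA4, was lower in both treated libraries than in both untreated ones once scaled. This difference between the loci was not tested. The next shared site, 15.8 kb away at chr10:90040940-90042639, had 11 and 13 in the treated libraries against 34 and 17 in the untreated ones, a relative log2 ratio of -0.39, and there the groups overlapped once scaled.

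Beyond this cluster the RNLS window held few and mostly weak sites. The strongest shared site lay 316.9 kb from the lost site, at chr10:90342457-90343330, with 23 and 26 in the treated libraries against 33 and 30 in the untreated libraries. Its relative log2 ratio was 0.25, and it was -0.36 without scaling. The site at chr10:90324783-90325337 had 5 and 5 against 17 and 7, and a relative log2 ratio of -0.51, with groups that overlapped once scaled. It was -0.17 without untreated replicate 1 and -1.06 without untreated replicate 2. The highest ratios were 0.73 at chr10:90145173-90145802, with 7 and 9 in the treated libraries against 6 and 9 in the untreated ones, and 0.35 at chr10:90312783-90313392, with 5 and 10 against 8 and 9. At both the groups overlapped in reads. The larger ratio was 0.14 without untreated replicate 1 and 0.11 without scaling. The smaller was -0.03 without treated replicate 2 or untreated replicate 1 and -0.26 without scaling. The strongest site's ratio was -0.25 with coverage summed over its peaks. No gained site was found at RNLS.

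ARID5B held 3 lost sites (5.56% of its sites), against 1 at each of the other loci. That was 1.35% at ABCA4, 4.55% at DUSP10 and 3.57% at RNLS, against 3.35% of all sites. Each count includes the site that chose the locus, so nothing can be read from these shares. At a −log10 q of 5 or more the counts were 7 at ARID5B and 3 at ABCA4, and with equal numbers of peaks per list they were 4 at ARID5B and 2 at DUSP10. Windows of 100 kb on either side of the lost sites held 5 at ARID5B, 2 at ABCA4 and 2 at DUSP10. The share of all sites called lost under these settings is not given. The strongest ARID5B lost site stood 7.0 kb from a shared site on its left, at chr10:63580854-63581435. Coverage there was 11 and 37 in the treated libraries against 60 and 38 in the untreated libraries. Treated replicate 1 was far lower than the other 3 libraries there, and the groups overlapped once scaled. The relative log2 ratio was -0.63, but -0.06 without treated replicate 1 and -1.38 without treated replicate 2. The lower value thus rested on treated replicate 1. On the right, the site at chr10:63594772-63595789 had a peak in 3 lists, with 0 and 8 in the treated libraries against 9 and 13 in the untreated libraries. The second lost site followed 17.6 kb to the right, at chr10:63605549-63606091, with no treated peak and a coverage of 10 and 8 in the untreated libraries. The third, 95.2 kb to the right at chr10:63683138-63683656, had 13 and 6 in the untreated libraries, and a peak number was missing there in treated replicate 2. The better of these 2 ranked 1365 among 12522 lost sites. Gained sites lay at chr10:63843629-63844162, with 6 and 10 in the treated libraries, and at chr10:63852356-63853141, with 6 and 7, and neither had an untreated peak. At both a peak number was missing in untreated replicate 1, and ARID5B had 0 gained sites when such sites were left out.

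Among the shared sites of the ARID5B locus some were lower and some higher in both treated libraries. The lowest relative log2 ratio, -0.97, was at chr10:63699262-63699800, with 4 and 7 in the treated libraries against 21 and 12 in the untreated libraries. At chr10:63810261-63811290 coverage was 10 and 25 in the treated libraries against 46 and 42 in the untreated ones, a relative log2 ratio of -0.86. In both, the groups did not overlap. Near that site lay the strongest of the locus, at chr10:63808762-63809286, which had 30 and 56 against 87 and 48 and a relative log2 ratio of -0.04. That ratio was 0.10 without treated replicate 1 and 0.09 without untreated replicate 1. The highest ratio, 1.25, was at chr10:63853515-63854242, with 19 and 25 in the treated libraries against 18 and 11 in the untreated libraries. It was followed by 0.87 at chr10:63807563-63808388, with 5 and 10 against 5 and 7, where the coverages of the groups overlapped before scaling, and where merging within 150 bp turned the ratio to -0.15.

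**Figure D2:**
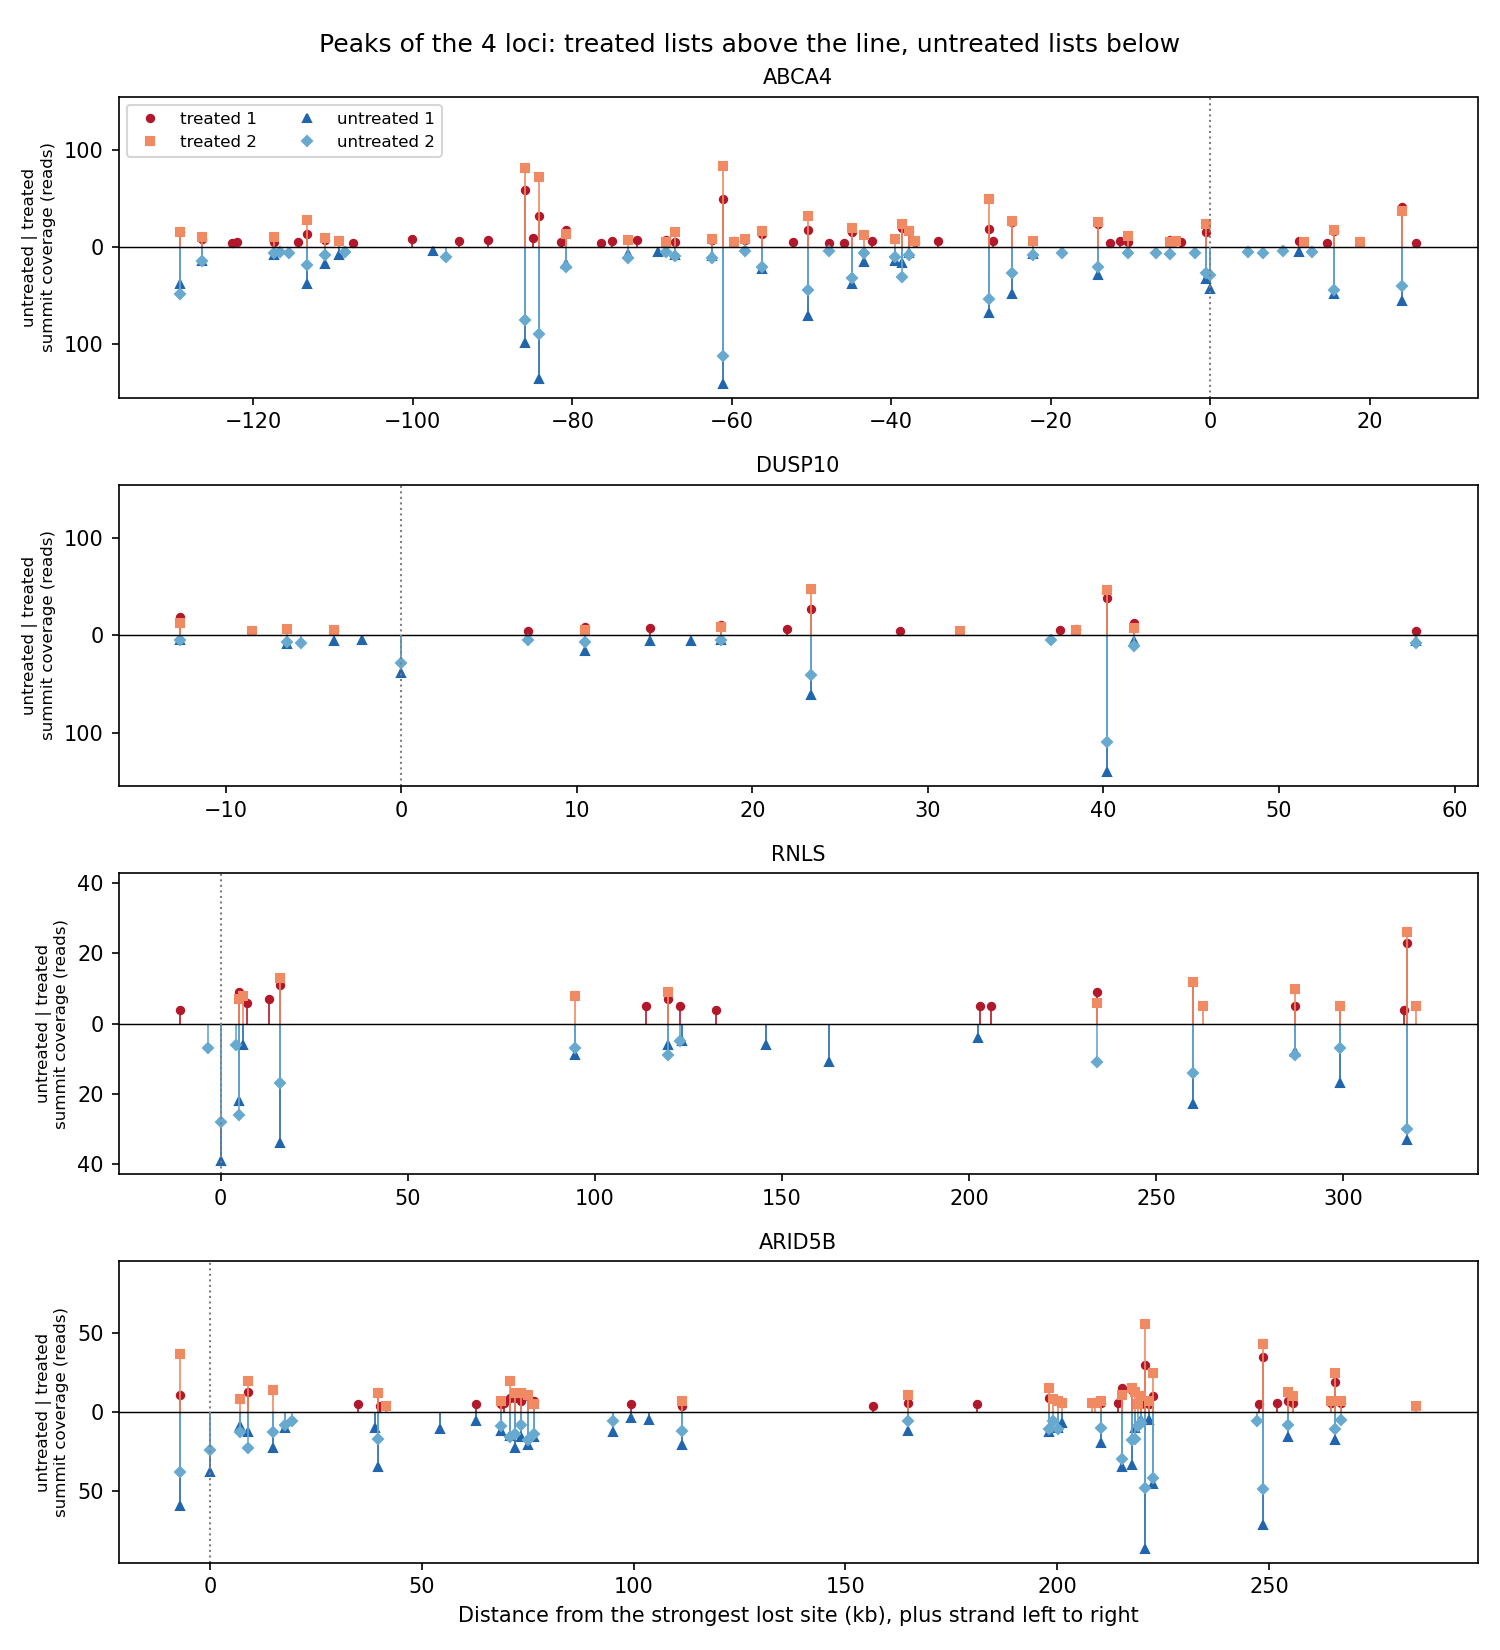
Summit coverage in reads of every site of the 4 loci against its distance in kb from the strongest lost site (dotted line), with the treated libraries above the horizontal line and the untreated libraries below it, each locus on its own scale. The lost site has lines only below, the DUSP10 locus has its 140 and 109 reads of untreated coverage 40.2 kb to the right, and single-list peaks appear as short lines on 1 side.

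Most of the other sites of the loci were shared or found in 1 list only. There were 6 lost sites among 178, or 3.37%, against 3.35% of all sites. The 4 chosen ones are among the 6, so that nothing can be read from this share. Gained sites numbered 5, or 2.81%, against 4.21% of all sites. The other sites were 56 shared sites (31.5%, against 28.2% of all sites), 19 found in 3 lists (10.7%, against 10.4%), 12 crossed (6.74%, against 7.85%) and 80 found in 1 list (44.9%, against 45.9%). The sites in 1 list were weak, with a median coverage of 5 and a highest of 11. Of the 19 sites in 3 lists, 10 lacked a peak in treated replicate 1 and 1 in treated replicate 2, against 6 in untreated replicate 1 and 2 in untreated replicate 2. This split over all sites is not given, and treated replicate 1 had the lowest median coverage over all shared sites. Nothing about the loci can therefore be read from it.

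With all listed peaks, the groups overlapped in peak number at each locus. ABCA4 had 60 and 43 peaks in treated replicates 1 and 2, against 38 and 53 in untreated replicates 1 and 2. DUSP10 had 18 and 15 against 16 and 15, RNLS 18 and 13 against 15 and 16, and ARID5B 35 and 42 against 40 and 36. Together the loci held 122 ± 12.7 peaks in treated libraries and 114.5 ± 7.78 in untreated libraries (SD, n = 2 each), a log2 ratio of 0.09, against 0.18 over all chromosomes used. The exact two-sided permutation test over the 4 libraries gave p = 0.667 for the 4 loci together, with 0.33 the smallest value it allows. The counts include the 4 lost sites that chose the loci, which have peaks in the untreated lists only. The ratio and its p are therefore partly set by that choice, and without these sites the log2 ratio was 0.14. Without treated replicate 1, which had the most peaks, the log2 ratio was -0.02. With peaks of a −log10 q of 5 or more the direction was turned for the 4 loci together, with a log2 ratio of -0.39. By locus it was -0.79 at RNLS, -0.75 at ARID5B, -0.19 at ABCA4 and 0.26 at DUSP10. The ratio over all chromosomes is not given for this filter, and the untreated peaks of the 4 lost sites all pass it. Summit coverage was lower in the treated libraries over all shared sites too. Whether the turn is particular to these loci was not tested.

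**Figure D3:**
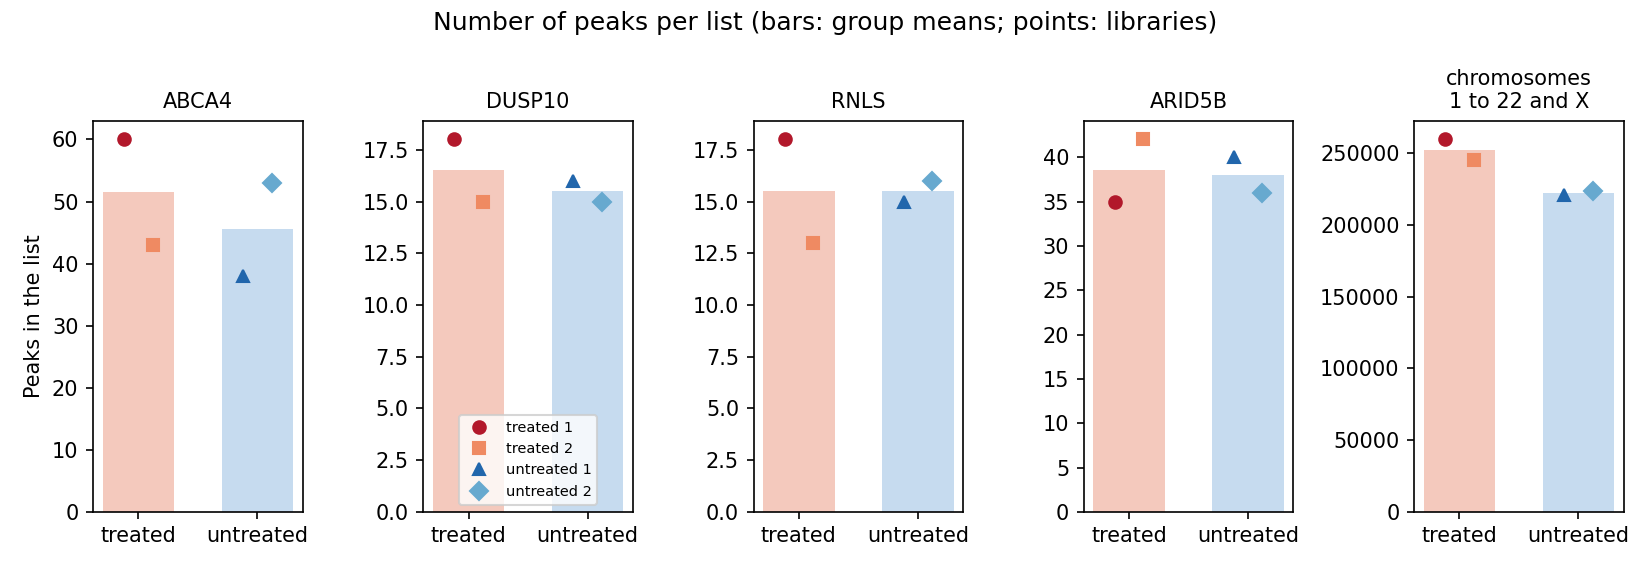
Number of listed peaks (y axis, from 0, own scale per panel) at each locus and over chromosomes 1 to 22 and X, with bars for the group means and points for the 2 treated and 2 untreated libraries. At each locus the points of the groups overlap, while over all chromosomes both treated lists, with 259572 and 245142 peaks, lie above both untreated lists.

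The shared sites of the 4 loci had the same median relative log2 ratio, 0.06, as all 105414 shared sites. It was -0.12 to -0.01 without any 1 library and -0.56 without scaling. Each run without a library took shared sites and library medians anew from the remaining lists. The median over all shared sites is not given for those runs, so these values do not show dependence on a single library alone. Of the 56 sites, 24 were below 0 (42.9%, against 45.9% of all shared sites). The mean relative log2 coverage over the 56 sites was 0.20 and 0.06 in treated replicates 1 and 2, and 0.03 and 0.05 in untreated replicates 1 and 2. Both treated libraries lay above both untreated ones by little, with p = 0.33 in the exact permutation test, its smallest possible value. By locus the median was 0.11 at ABCA4 (22 sites), 0.55 at DUSP10 (6 sites), 0.04 at RNLS (7 sites) and -0.15 at ARID5B (21 sites). The DUSP10 value was -0.37 at a −log10 q of 5 or more, -0.40 for sites with a coverage of 10 or more in every list, -0.07 without scaling, 0.08 to 0.16 under the other ways of merging, and 0.18 without treated replicate 1. The ABCA4 value was -0.02 without either treated replicate and -0.51 without scaling. The RNLS value was -0.39 in windows of 100 kb on either side of the lost site, -0.58 without scaling and -0.23 without untreated replicate 2. The ARID5B value was below 0 under every alternative run. The same exact permutation test was made on the mean relative log2 coverage of each library at each locus, not on the medians. This permutation test gave p = 0.33 at ABCA4 and at DUSP10 and p = 1 at RNLS and at ARID5B. The loci were not tested against each other. Sites of 1 locus are not replicates of a condition.

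Site by site, relative coverage in both treated libraries was below that in both untreated libraries at 15 of the 56 shared sites (26.8%), against 22.2% of all shared sites. It was above at 11 (19.6%), against 27.2%. Of the 15 sites below, 6 were at ABCA4, 1 at DUSP10, 1 at RNLS and 7 at ARID5B. Of the 11 above, 4, 2, 1 and 4 were at these loci, which held 22, 6, 7 and 21 shared sites. Without scaling, 29 of 56 (51.8%) were below and 4 (7.14%) above, against 47.6% and 4.39% of all shared sites. The 4 were the ABCA4 site at chr1:94534441-94534956, the DUSP10 sites at chr1:221862423-221863004 and chr1:221893239-221893831, and the ARID5B site at chr10:63853515-63854242. After scaling, sites below were more frequent than sites above at the 4 loci, and less frequent among all shared sites, a difference that was not tested. It rests on few sites. The mean relative log2 coverage of the same 56 sites went the other way, with 0.20 and 0.06 in the treated and 0.03 and 0.05 in the untreated libraries. Nothing about the loci is therefore read from these shares.

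**Figure D4:**
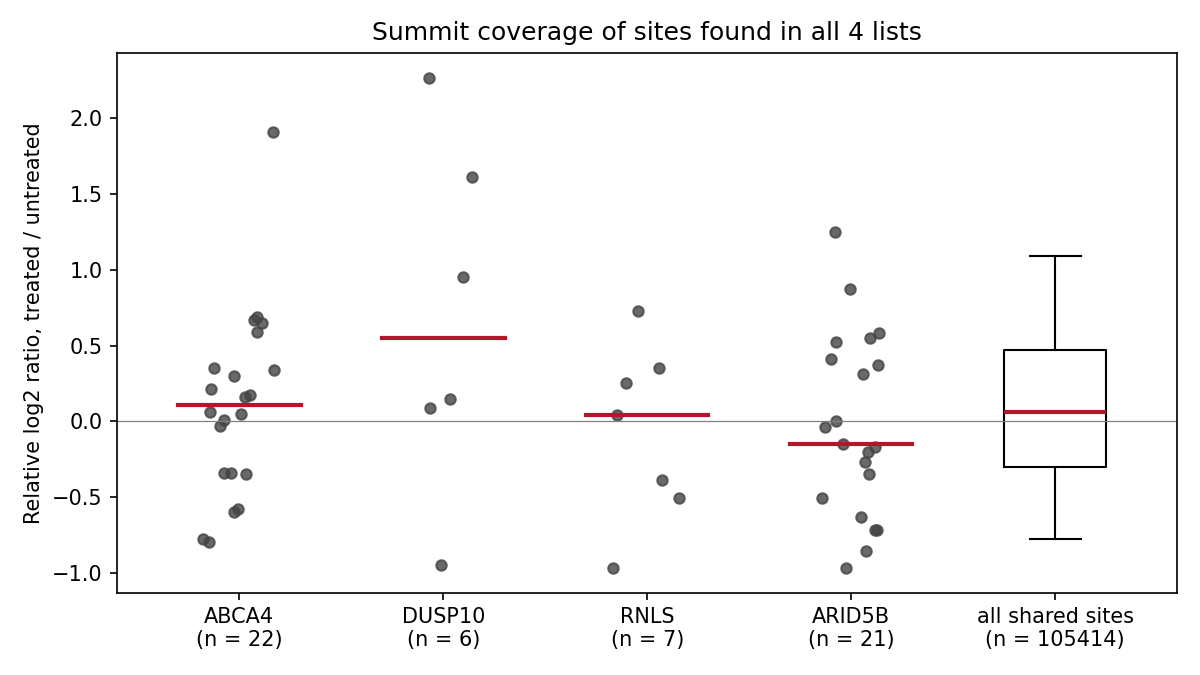
Relative log2 ratio of summit coverage, treated over untreated (y axis), for each shared site of the 4 loci (points, with the median as a red line) and for all 105414 shared sites (box from the 25th to the 75th percentile, whiskers at the 5th and 95th). The points spread around the median of all sites, from -0.97 at RNLS and ARID5B to 2.27 at DUSP10.

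Few shared sites lay close to the lost sites, also when those outside the windows were taken. There were 2 within 5 kb of one of the 4, at ABCA4 and RNLS, with the ratios of 0.01 and -0.97 given above. Between 5 and 25 kb there were 12 with a median relative log2 ratio of 0.16, and between 25 and 100 kb there were 38 with a median of 0.19. Around the 971 stronger lost sites the medians were -0.08 (649 shared sites), -0.01 (2314) and 0.02 (7928) over the same distances. Around the 519 gained sites of that height they were 0.34 (554), 0.21 (1830) and 0.13 (5677). These medians over many sites are a description, and the sites near a lost or gained site share its surroundings.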

How the data were processed

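ATAC-seq peak lists of BCPAP cells, 2 treated with 5-azacytidine and 2 untreated, were used, and samples were grouped by their titles. Per the submitters' processing notes, the hg19 build, MACS2, Bowtie2, Trimmomatic and Picard were used. Nothing states their versions, their settings or any shift of read ends for the transposase. The deposited lists hold 1 peak per line in intervals of 500 bp. The deposited score sums to 1000000 in each list, so the authors scaled it. Fold enrichment over background is the authors' own value. Their −log10 p-values ranked peaks and their −log10 q-values served as a filter, as deposited. The summit offset was not used for values.

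Fold values were whole multiples of 1 step per list (100% within 0.01 of a step). Fold over step minus 1 was taken as the read coverage at the summit, with a background of 0.875 to 0.913 reads per list. The highest peak of a list stood for a site. Depth in reads is unknown, so no counting interval is given. Peaks on chromosomes 1 to 22 and X were merged where they shared at least 1 bp. The merging and ratios were tested on simulated lists. In these, peaks of neighbouring sites never overlapped, so the joining of neighbouring summits into 1 site was not tested. Groups were compared by permuting the 4 libraries in all 6 ways (exact, two-sided), and no test was made for any site, since p cannot go below 0.33. A p of this kind measures only the spread between these libraries.

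Members, lists, windows and alternatives were chosen with earlier results of these data known. Named sites were the strongest lost site, the strongest site and the nearest sites of each locus, other lost or gained sites with a coverage of at least 10 (otherwise the 2 strongest of each), and the shared sites with the 2 lowest and 2 highest relative ratios. Further sites named as nearest shared sites, and the class of sites as high as the lost ones, were chosen after their values were seen. Alternatives covered the peaks used, the merging, the measure, the window and each left-out library. A run without a library took the shared sites and library medians anew from the remaining lists. The setting that used missing summit letters was added after seeing the data. No hg19 annotation or genome was used, so exons, introns and motifs at the sites were not analysed. Promoter sequences came from RefSeq on GRCh38.p14, which holds all 4 gene symbols and a promoter for 3. Cell type markers were not checked, since these files hold no expression. The tools were matplotlib 3.10.9, pandas 2.3.3, numpy 2.4.6 and Python 3.11.15.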

Additional observations from a re-analysis of the deposited data

How the results depend on the processing

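All 4 strongest lost sites stayed lost when lists were trimmed to equal numbers of peaks, when −log10 q had to reach 5, when overlap had to reach 50% of each peak, when summits with 100 bp on either side were merged, and without any 1 library. None of these settings can add a treated peak. The outcome was therefore fixed for sites chosen for having no treated peak, unless their untreated peaks dropped out. Merging within 150 bp ended the call at ABCA4. Leaving out sites with a missing peak number ended it at RNLS, and leaving out those with a missing number or summit letter ended it at ABCA4 and RNLS. The number of lost sites at the 4 loci, 6, was 12 at the stricter q, 10 in windows of 100 kb on either side of the lost sites, and 3 without sites with a missing number or letter. It ranged from 7 to 24 with 1 library left out, which removes a condition. The shares of all sites called lost or gained under these settings are not given. The number of gained sites, 5, was 3 at the stricter q, 2 with the 50% overlap, 2 with summits and 100 bp, and 1 without sites with a missing number (1 also with the letter). It ranged from 7 to 47 with 1 library left out. The log2 ratio of peak numbers, 0.09, was 0.14 without the 4 strongest lost sites. It was -0.39 at the stricter q, -0.09 with equal numbers and -0.07 in the 100 kb windows. With 1 library left out it ranged from -0.02 to 0.19. The median relative log2 ratio of shared sites, 0.06, was 0.16 in the 100 kb windows, -0.56 without scaling, -0.03 with coverage summed over the peaks of a site and -0.04 for sites with a coverage of at least 10 in every list. With 1 library left out it ranged from -0.12 to -0.01. The causes of these differences were not tested. With the replicate block, the log2 ratio of peak numbers was 0.09 (exact p = 1). For shared sites the block test used the mean relative log2 coverage of each library, not the median of 0.06. Treated minus untreated, these means differed by 0.17 and 0.02 in the 2 pairs (exact p = 0.5, the smallest 2 pairs allow). Same-numbered libraries are not said to share a batch, and their deviations from the group means had a correlation of -0.05 over the shared sites.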
